A study of Homo sapiens with 30 samples.

Results

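Mitochondria transcribe their own circular genome with a machinery that is encoded in the nucleus, and 10 nuclear genes of this machinery were followed here in 2 human cell lines treated with Omomyc. They are TFAM, POLRMT, TFB1M, TFB2M, TEFM, POLG, LRPPRC, SLIRP, PNPT1 and SUPV3L1. They were chosen by name from knowledge of mitochondrial transcription, mitochondrial DNA replication and mitochondrial RNA stability, with earlier results of these data known. Each matched exactly 1 of the 57992 genes in the table of RPKM, a read number corrected for gene length and for library size. Omomyc is a miniprotein made from a mutated dimerization and DNA-binding domain of MYC, and it competes with MYC for its partner MAX and for E box DNA. RNA-Seq was carried out on 30 libraries in 10 groups of 3. HCT116 cells, a human colon carcinoma line labelled as having stabilized MYC, were untreated or received Omomyc at a lower dose or at 10 μM for 6 or 24 h. Ramos cells, a Burkitt's lymphoma line labelled as carrying a MYC translocation, were untreated or received 500 nM or 2.5 μM Omomyc for 6 or 24 h. The lower dose in HCT116 cells is 2 μM in the labels and 2.5 μM in the study's methods. The titles give 24 h where a time tag in the labels gives 4 h, and 24 h is used here. Each line had 1 untreated group with no stated time, and its 4 Omomyc groups are all compared with it, so these comparisons share their controls. HCT116 cells were treated with the protein delivery reagent ProteoJuice, whether untreated cells also received it is open, and no such reagent is described for Ramos cells. Nothing in the labels says that replicates came from separate cultures, so p-values measure the spread between these samples, which may be technical.

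POLRMT is the RNA polymerase of mitochondria. TFAM bends and packages mitochondrial DNA and brings POLRMT to the promoters, TFB2M helps to open the DNA there, and TEFM keeps the polymerase moving along the genome. TFB1M, a relative of TFB2M, is known as a methyltransferase of the small mitochondrial ribosomal RNA, and POLG is the catalytic subunit of the polymerase that copies mitochondrial DNA. The transcripts are long and are cut into single RNAs. LRPPRC and SLIRP bind each other and hold mitochondrial mRNAs in a stable, translatable form, while PNPT1, a 3′ to 5′ exoribonuclease, and SUPV3L1, an RNA helicase, work together in RNA decay. Many genes of this system carry promoter sites for NRF1 and for ETS-type factors, and MYC has also been placed upstream of several of them.

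Because Omomyc acts on E box DNA, the promoters of the 10 genes were read from RefSeq (GRCh38.p14) in windows from 250 bases before to 50 after the start site. Every gene had a window, and SLIRP had 2. The E box CACGTG was found in the windows of 0 of the 10 genes, and 7.26% of 35116 windows of that length in RefSeq hold it. Noncanonical E boxes were not searched, and the study reports that Omomyc bound such sequences of the VEGFA promoter in vitro about as strongly. The NRF1 core CGCATGCG was found in 3 genes, POLRMT, TFB1M and TFB2M, and in 2.02% of all windows. The ETS-type sequence CCGGAAGT was found in 2 genes, POLRMT and TEFM, and in 4.14% of all windows. Each motif was searched on both strands. No match in the 10 genes overlapped another motif. The stretches from 170 bases before to 20 after the start site are shown for POLRMT, TFB1M, TFB2M and TEFM. These hold all matches, and TFB1M and TFB2M moved apart in HCT116 cells. Capitals mark the NRF1 core or the ETS-type sequence, the latter in POLRMT as its reverse complement, and all 4 lie on the minus strand.
TFB1M, chr6:155314465-155314654: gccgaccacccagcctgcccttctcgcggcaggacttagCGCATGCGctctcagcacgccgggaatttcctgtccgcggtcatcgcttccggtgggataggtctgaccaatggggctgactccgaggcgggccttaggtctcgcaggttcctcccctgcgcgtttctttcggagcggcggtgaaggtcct
TFB2M, chr1:246566242-246566431: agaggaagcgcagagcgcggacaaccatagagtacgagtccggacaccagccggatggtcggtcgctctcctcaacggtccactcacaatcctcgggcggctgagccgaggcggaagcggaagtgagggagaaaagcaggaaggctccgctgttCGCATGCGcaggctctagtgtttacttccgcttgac
POLRMT, chr19:633518-633707: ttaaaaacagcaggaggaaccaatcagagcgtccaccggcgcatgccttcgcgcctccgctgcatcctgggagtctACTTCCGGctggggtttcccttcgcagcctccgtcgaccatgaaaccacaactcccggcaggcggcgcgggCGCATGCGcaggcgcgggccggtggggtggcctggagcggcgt
TEFM, chr17:30906219-30906408: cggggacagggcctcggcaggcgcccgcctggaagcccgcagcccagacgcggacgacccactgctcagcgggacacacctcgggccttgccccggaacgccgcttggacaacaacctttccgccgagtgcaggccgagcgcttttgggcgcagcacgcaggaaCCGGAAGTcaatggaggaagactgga
These matches are of letters only and say nothing of binding in these cells. The NRF1 core starts at position -131 from the start site in TFB1M, at -16 in TFB2M and at -23 in POLRMT.

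The labelled lines were checked against marker genes. All 10 B cell markers had a mean RPKM of at least 0.5 in Ramos cells, where their summed level was 2932 to 3332 RPKM per library, and 1 of 10 did in HCT116 cells, with sums of 1.02 to 3.67 RPKM. Of 10 colon epithelial markers 6 reached that level in HCT116 cells, with sums of 1417 to 2234 RPKM, and the differentiation markers CDH17, VIL1, CDX1 and LGALS4 did not. In Ramos cells 0 of 10 did. T cell and myeloid markers summed to at most 1.02 RPKM in every library, and fibroblast markers to at most 6.64 RPKM in HCT116 cells. The RPKM of a library summed to 593633 to 1051041 in HCT116 cells and to 783788 to 973736 in Ramos cells. Within HCT116 cells the sum was 593633 to 660769 in untreated cells and higher in every library at 6 h. A pair of 6 h libraries stood highest, replicate 3 at 10 μM with 1051041 and replicate 2 at the lower dose with 836899. In both, LRPPRC, POLG and POLRMT were the lowest and SLIRP the highest of their group, so results that rest on them are given with and without them. Over the 15 HCT116 libraries the log2 level correlated with the log2 summed RPKM at -0.97 for LRPPRC, -0.78 for TFB1M, 0.75 for SLIRP and 0.68 for TFB2M. The other genes lay between -0.54 (POLG) and 0.61 (PNPT1). In Ramos cells these correlations were -0.52 for LRPPRC, 0.14 for TFB1M, -0.02 for SLIRP and -0.15 for TFB2M. The sum also differed between the Omomyc groups, and its part in the results was not tested.

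In untreated cells SLIRP was the most abundant of the 10 mRNAs in both lines and TEFM the least abundant. On the RPKM scale, which is per length of gene, SLIRP was at 162 ± 8.75 (SD, n = 3) in HCT116 cells and at 238 ± 14.3 in Ramos cells. TEFM was at 8.84 ± 1.45 in HCT116 cells and at 11.8 ± 0.298 in Ramos cells. Between these ends the order in HCT116 cells was LRPPRC, TFAM, POLG, POLRMT, SUPV3L1, PNPT1, TFB1M and TFB2M, and of neighbours in that order POLG and POLRMT alone overlapped. In Ramos cells it was TFAM, LRPPRC, PNPT1, POLG, POLRMT, TFB1M, SUPV3L1 and TFB2M, with overlap between TFAM and LRPPRC, between PNPT1 and POLG, between POLRMT and TFB1M, and between TFB1M and SUPV3L1. LRPPRC was at 100.01 ± 2.02 RPKM in HCT116 cells and at 51.7 ± 2.70 RPKM in Ramos cells, and the ratio of SLIRP to LRPPRC within a library was 1.55 to 1.65 in the first and 4.19 to 4.97 in the second.

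**Figure D1:**
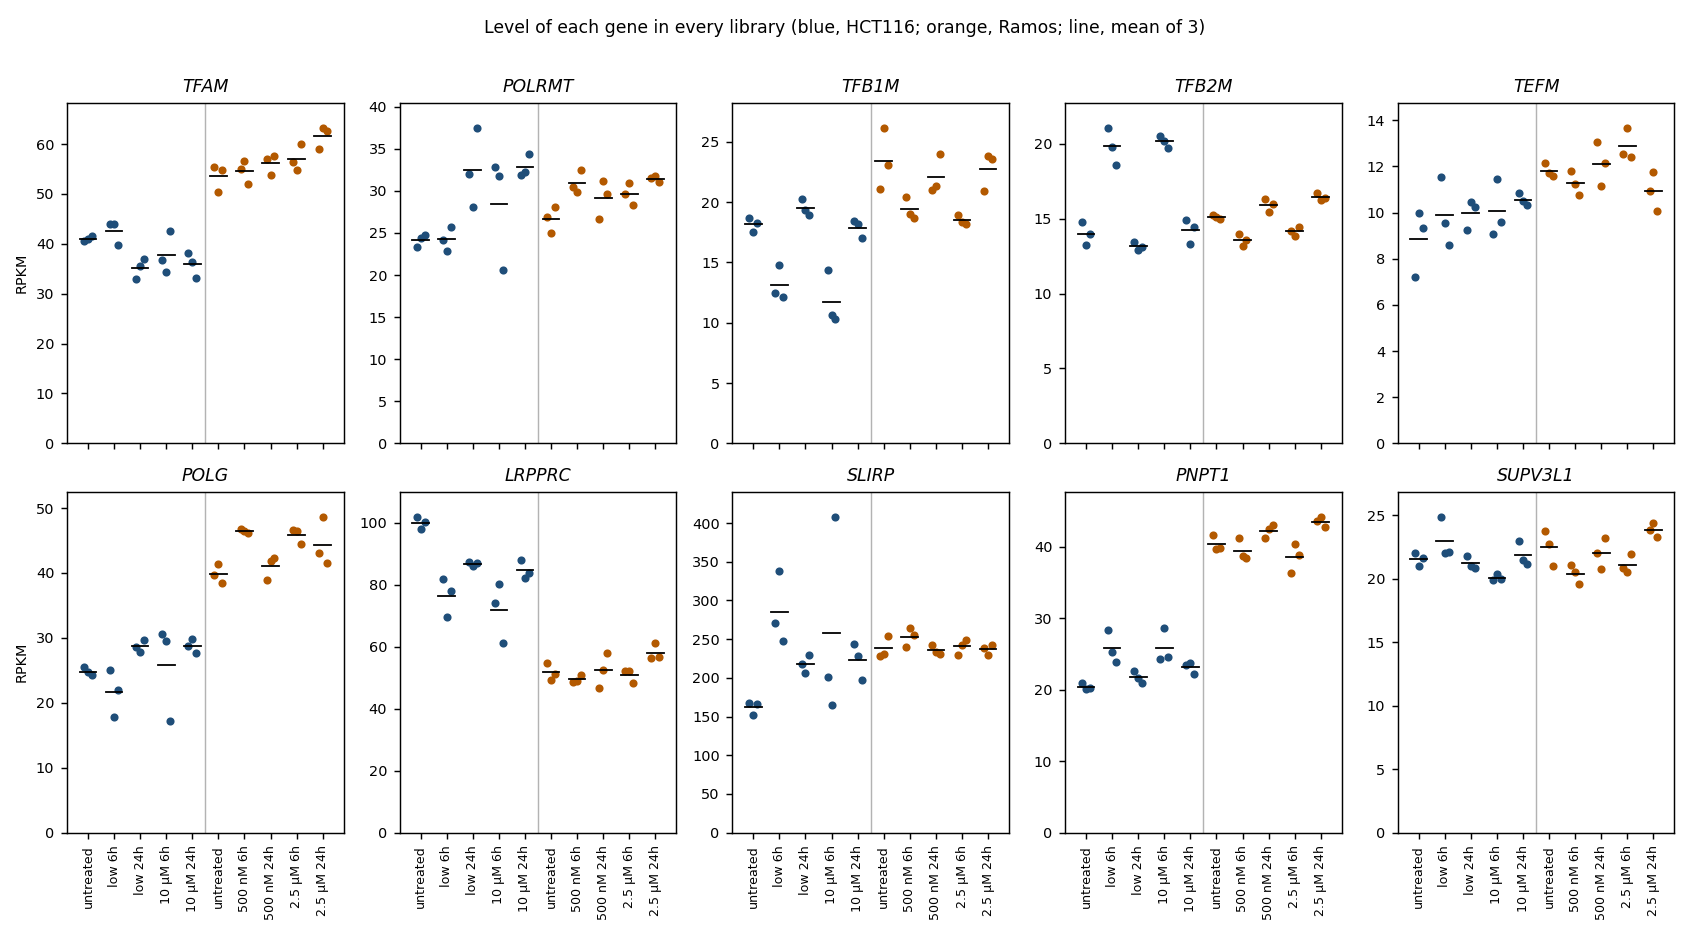
RPKM of each of the 10 genes (linear axis from 0) in every library, with a dot per library and a line at the mean of 3 replicates. In HCT116 cells TFB1M dips and TFB2M peaks in both 6 h groups ("low" is the lower dose), LRPPRC lies below its untreated level in every Omomyc library, and SLIRP in Ramos cells stays between 229 and 264 RPKM.

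The untreated lines differed in 7 of the 10 genes (limma, Benjamini-Hochberg adjusted p under 0.05), where 84.6% of all 15647 genes tested were called, so this share is not a feature of the 10. LRPPRC measured 101.8, 97.8 and 100.4 RPKM in HCT116 cells and 54.6, 49.3 and 51.2 in Ramos cells. The groups do not overlap, and the log2 difference on the log2(RPKM + 0.5) scale was 0.95 (SE 0.05, adjusted p = 1.26e-06). PNPT1 went the other way, with 21.0, 20.04 and 20.2 RPKM in HCT116 cells and 41.7, 39.6 and 39.8 in Ramos cells, a log2 difference of -0.97 (SE 0.04, adjusted p = 6.68e-07). POLG, SLIRP, TEFM, TFAM and TFB1M were lower in HCT116 cells by log2 differences of -0.67, -0.55, -0.41, -0.38 and -0.36. When each library was rescaled to the same summed RPKM, TFAM, TFB1M, TEFM and SLIRP turned to slightly higher in HCT116 cells and were not called, and POLRMT (0.43) and TFB2M (0.45) were called higher there, as was SUPV3L1 (0.51, adjusted p = 0.000609). POLG was then at -0.11 and not called (adjusted p = 0.241), and LRPPRC and PNPT1 kept their direction and call. That rescaling moved the median log2 difference of all genes from 0.09 to 0.65. Its fit called 13260 of all 15730 genes tested, 9756 of them higher in HCT116 cells. Relative to that median, PNPT1 was at -1.05 and TFAM at -0.46 under both scalings.

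Omomyc was compared with untreated cells at each dose and time. At least 1 of these 4 comparisons called 8 of the 10 genes in HCT116 cells, where it called 67.7% of all genes tested in all 4, and 3 of the 10, POLRMT, TFB1M and POLG, in Ramos cells, where it called 33.1%. The 10 genes thus lay near the share of all genes in each line. TEFM and SUPV3L1 were called in 0 of these 8 comparisons. In HCT116 cells at 6 h the lower dose called 5 of 10 (47.3% of all genes tested) and 10 μM called 4 of 10 (30.0%). At 24 h the lower dose called 5 of 10 (27.3%) and 10 μM called 6 of 10 (35.2%). In Ramos cells 500 nM called 3 of 10 at 6 h (23.6%), and 2.5 μM called 2 of 10 at 6 h (27.9%) and 1 of 10 at 24 h (4.61%). At 24 h with 500 nM limma called 0 of 10 (0.0146% of all genes), and 0 had an unadjusted p under 0.05. With 10 genes no share was set apart from that of all genes by a test. In 6 of the 7 comparisons with calls some of the 10 were higher and some lower, such as 3 higher and 2 lower at the lower dose at 6 h in HCT116 cells. In bulk samples such as these, fewer cells of a type and less RNA per cell cannot be told apart. The median log2 change of the 10 was 0.07 and 0.10 at 6 h in HCT116 cells for the lower and higher dose, where that of all genes was -0.12 and -0.11. A single gene compared by an exact permutation test of 3 against 3 cannot give a p below 0.1, so that test was not used for calls.

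**Figure D2:**
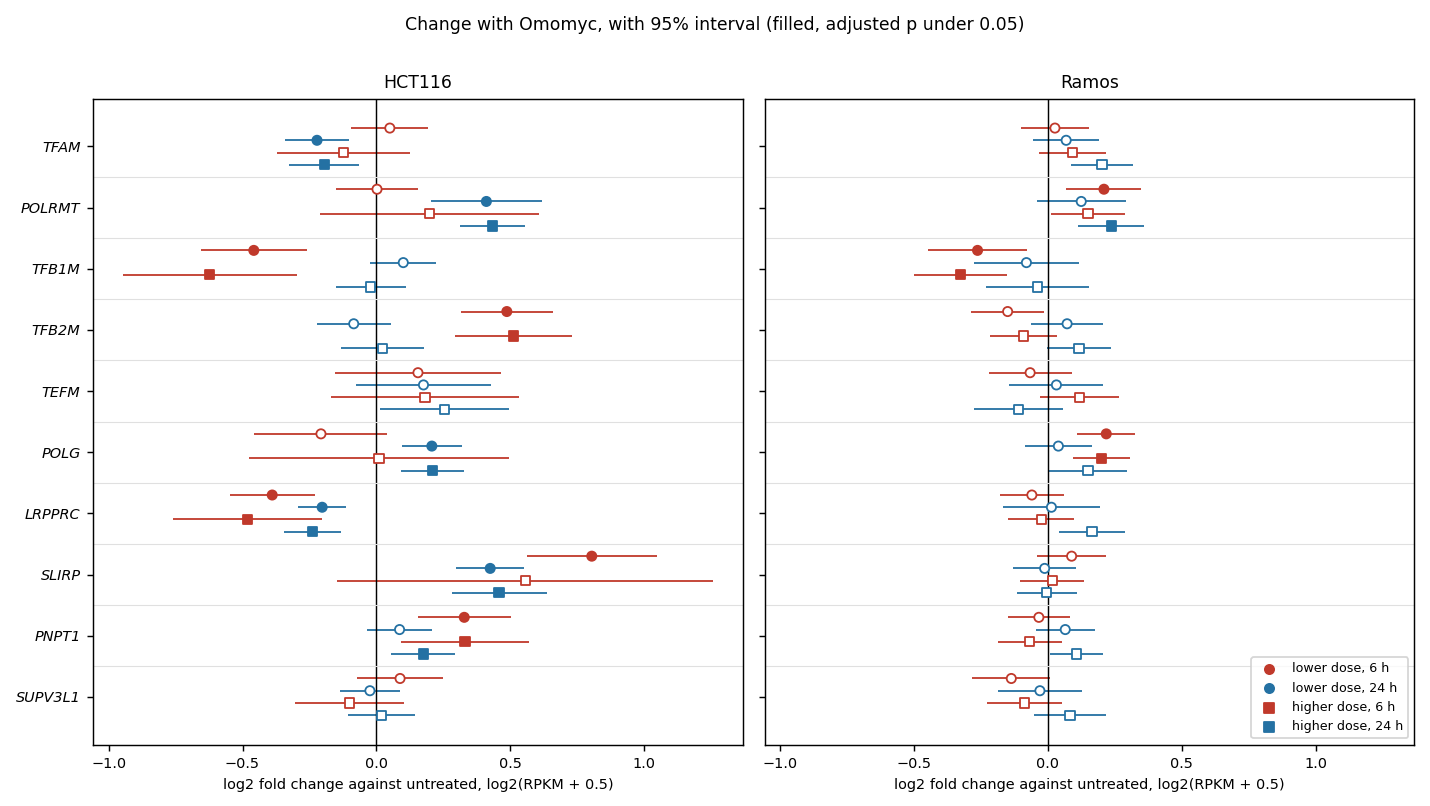
Log2 fold change against the untreated cells of the line, on the log2(RPKM + 0.5) scale, with 95% intervals, for the lower (circles) and higher (squares) dose at 6 h (red) and 24 h (blue). Filled symbols passed an adjusted p of 0.05, and in HCT116 cells TFB1M and TFB2M are filled on opposite sides at 6 h and open near 0 at 24 h.

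The clearest movement within the set was that of TFB1M and TFB2M in HCT116 cells, which went in opposite directions at 6 h. TFB1M (ENSG00000029639) measured 18.7, 17.5 and 18.3 RPKM in untreated cells, 12.5, 14.8 and 12.1 after 6 h at the lower dose and 14.4, 10.6 and 10.3 after 6 h at 10 μM. All 6 treated libraries were below all 3 untreated ones. TFB1M fell by 0.46 (SE 0.09, adjusted p = 0.00253) and by 0.62 (SE 0.14, adjusted p = 0.0153) on the log2 scale. TFB2M (ENSG00000162851) measured 14.8, 13.3 and 14.0 RPKM in untreated cells, 21.1, 19.8 and 18.6 at the lower dose and 20.5, 20.2 and 19.7 at 10 μM. All 6 treated libraries were above the untreated ones, and TFB2M rose by log2 changes of 0.49 (SE 0.08, adjusted p = 0.000904) and 0.51 (SE 0.09, adjusted p = 0.0073). At 24 h both genes were back near their untreated levels. TFB1M was then at 19.5 ± 0.651 RPKM at the lower dose and 17.9 ± 0.759 at 10 μM, and TFB2M at 13.2 ± 0.251 and 14.2 ± 0.832. The log2 changes at 24 h were 0.10 (95% interval -0.02 to 0.22) and -0.02 (-0.15 to 0.11) for TFB1M and -0.08 (-0.22 to 0.05) and 0.02 (-0.13 to 0.18) for TFB2M. Without replicate 3 at 10 μM the 6 h changes were -0.54 (adjusted p = 0.00592) for TFB1M and 0.53 (adjusted p = 0.00068) for TFB2M. Without untreated replicate 1, 2 or 3 in turn, the fall of TFB1M at 10 μM was -0.60, -0.65 and -0.62 with adjusted p of 0.0698, 0.055 and 0.0668.

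In Ramos cells TFB1M also fell at 6 h, whereas TFB2M did not rise. TFB1M measured 21.1, 26.2 and 23.0 RPKM in untreated Ramos cells, 20.5, 19.02 and 18.7 with 500 nM and 18.96, 18.4 and 18.2 with 2.5 μM at 6 h, without overlap. The log2 changes were -0.26 (SE 0.08, adjusted p = 0.0455) and -0.33 (SE 0.08, adjusted p = 0.0145). The first of these rests on most single libraries, since it was not called without untreated replicate 2 (-0.18, adjusted p = 0.11) or 3 (-0.27, 0.0745) or without 500 nM replicate 1 (-0.30, 0.0603), 2 (-0.25, 0.134) or 3 (-0.24, 0.138). The second was lost without 2.5 μM replicate 2 (adjusted p = 0.0504) or 3 (0.0541). With libraries rescaled to equal sums both were lost, at -0.17 (adjusted p = 0.251) and -0.19 (0.0827), and both were lost without a filter on low values (0.134 and 0.0575). TFB1M shares 215 exonic bases with TIAM2 on the other strand. TFB2M was at 15.1 ± 0.118 RPKM untreated and at 13.6 ± 0.379 and 14.2 ± 0.318 at 6 h, below the untreated libraries but not called (adjusted p = 0.103 and 0.245).

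The ratio of TFB2M to TFB1M within a library does not depend on how libraries are scaled. This ratio, chosen after the values were seen, was 0.758 to 0.790 in untreated HCT116 cells, 1.34 to 1.69 at the lower dose at 6 h and 1.43 to 1.92 at 10 μM at 6 h. At 24 h it was 0.664 to 0.691 and 0.732 to 0.847. In Ramos cells it lay between 0.578 and 0.797 in all 15 libraries. The 6 h libraries of HCT116 cells were thus above every other library in the series for this ratio, which shows unequal change of the pair and not that either gene was constant.

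**Figure D3:**
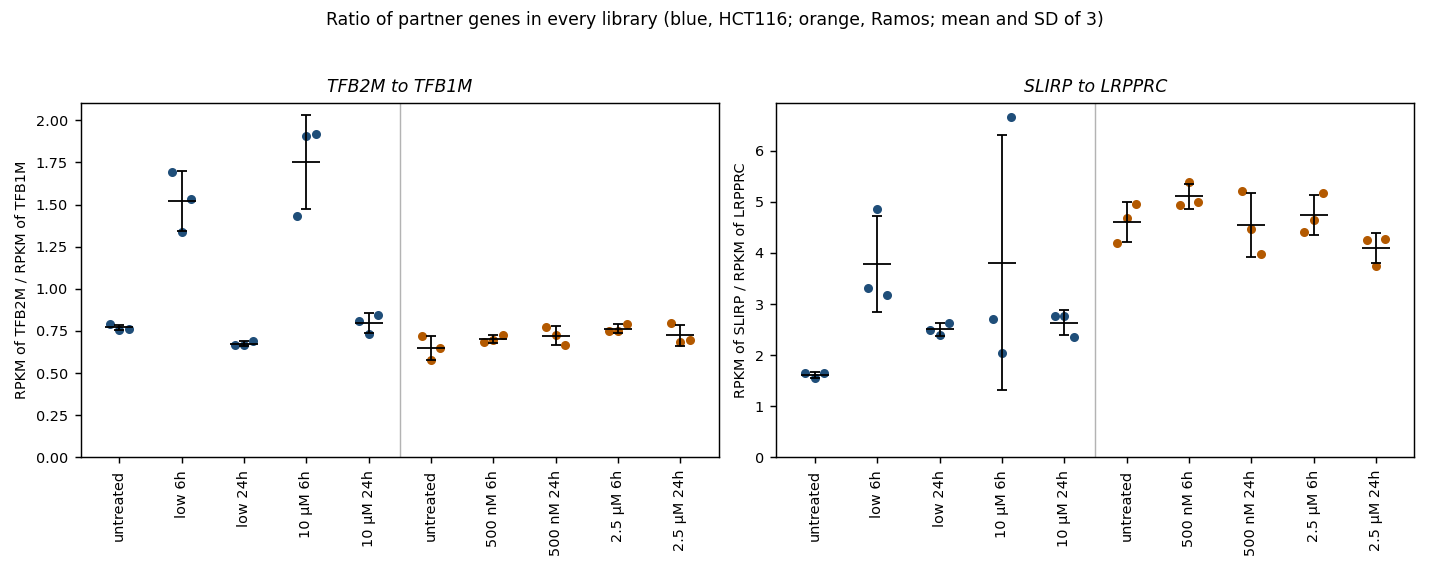
Ratio of RPKM of TFB2M to TFB1M (left) and of SLIRP to LRPPRC (right) in every library, with the mean and SD of 3 replicates and axes from 0. The TFB2M to TFB1M ratio is above 1.3 in the HCT116 6 h libraries and below 0.9 elsewhere, and the SLIRP to LRPPRC ratio is above 2 in every Omomyc library of HCT116 cells and at most 1.65 in untreated HCT116 cells.

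POLRMT and TFAM moved at 24 h in HCT116 cells, in opposite directions. POLRMT (ENSG00000099821) measured 23.3, 24.5 and 24.8 RPKM in untreated cells, 32.0, 28.1 and 37.5 at the lower dose and 31.9, 32.2 and 34.4 at 10 μM at 24 h. All treated libraries were higher, with log2 changes of 0.41 (SE 0.09, adjusted p = 0.0117) and 0.43 (SE 0.05, adjusted p = 0.000389). At 6 h POLRMT was 24.2 ± 1.38 RPKM at the lower dose, and 32.9, 31.7 and 20.6 at 10 μM. The last value is that of the library with the highest summed RPKM, and POLRMT was not called with it (log2 change 0.20, adjusted p = 0.423) but was called without it (0.41, adjusted p = 0.00103). TFAM (ENSG00000108064) measured 40.6, 41.0 and 41.6 RPKM in untreated cells and 33.0, 35.6 and 36.9 at the lower dose at 24 h, all of them lower. At 10 μM at 24 h it measured 38.1, 36.4 and 33.2, again without overlap. TFAM fell by 0.22 (SE 0.05, adjusted p = 0.0149) and by 0.19 (SE 0.06, adjusted p = 0.0281). The fall at the lower dose was not called without untreated replicate 3 (adjusted p = 0.0579) or lower-dose replicate 1 (0.0548), and that at 10 μM was lost without untreated replicate 1, 2 or 3 or 10 μM replicate 3, with adjusted p from 0.0648 to 0.0896. When all 5 groups of the line shared 1 estimate of the spread, 0 of the 10 genes were called at 24 h at either dose. That fit called 1113 and 2535 of all 14826 genes tested at the lower dose and 10 μM. Each 24 h call in HCT116 cells thus holds only with the spread of the 2 groups compared.

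In Ramos cells POLRMT was called slightly higher after 6 h with 500 nM and after 24 h with 2.5 μM. It was not called after 6 h with 2.5 μM (log2 change 0.15, adjusted p = 0.0974) or after 24 h with 500 nM (0.12, 0.864). POLRMT measured 26.9, 25.0 and 28.1 RPKM untreated and 30.4, 29.8 and 32.4 after 6 h with 500 nM, a log2 change of 0.21 (SE 0.06, adjusted p = 0.0384). After 24 h with 2.5 μM it measured 31.5, 31.8 and 31.1, a log2 change of 0.24 (SE 0.05, adjusted p = 0.0472). Both were lost when most single libraries were left out, the first without untreated replicate 1 or 2 or 500 nM replicate 1, 2 or 3 (adjusted p from 0.0744 to 0.137) and the second without untreated replicate 1 or 2 or 2.5 μM replicate 1, 2 or 3 (0.0903 to 0.178). Both were also lost under median-ratio scaling, at 0.18 each. TFAM in Ramos cells was at 53.5 ± 2.78 RPKM untreated and at 61.6 ± 2.23 after 24 h with 2.5 μM, where all 3 libraries were higher but the change was not called (log2 change 0.20, adjusted p = 0.0619). The summed RPKM of those 3 libraries was 783788 to 828045, below the 879661 to 973736 of untreated Ramos cells, and its part in these small rises was not tested. With equal sums 7 of the 10 genes were called higher there, TFAM, POLRMT, TFB2M, POLG, LRPPRC, PNPT1 and SUPV3L1. That fit called 5362 of all 13619 genes tested, 5221 of them higher, with a median log2 change of 0.24.

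TEFM (ENSG00000172171) measured 7.22, 10.0 and 9.32 RPKM in untreated HCT116 cells. It was 10.9, 10.5 and 10.3 after 24 h at 10 μM, with no overlap, but the log2 change of 0.26 (95% interval 0.01 to 0.50) was not called (adjusted p = 0.0923). Its largest change in Ramos cells against untreated cells was 0.12 (-0.03 to 0.27), after 6 h with 2.5 μM. TEFM shares 301 exonic bases with ADAP2 and 542 with AC130324.3 on the other strand, and whether the counting used strand is not given in the sources used here.

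POLG (ENSG00000140521), the replicative DNA polymerase, was called higher at 6 h in Ramos cells and at 24 h in HCT116 cells. In Ramos cells it measured 39.7, 41.4 and 38.5 RPKM untreated, 46.8, 46.5 and 46.1 after 6 h with 500 nM and 46.6, 46.4 and 44.5 after 6 h with 2.5 μM. The 6 treated libraries were all higher, with log2 changes of 0.22 (SE 0.05, adjusted p = 0.0118) and 0.20 (SE 0.05, adjusted p = 0.0144). The first was lost without 500 nM replicate 2 (adjusted p = 0.0515) and the second without 2.5 μM replicate 1 (0.0608) or 2 (0.061). After 24 h with 2.5 μM POLG measured 43.1, 48.6 and 41.5 RPKM, above the untreated libraries but not called (log2 change 0.15, adjusted p = 0.220). With 500 nM the change at 24 h was 0.04 (adjusted p = 0.935). In HCT116 cells POLG was 25.5, 24.7 and 24.3 RPKM untreated and rose at 24 h to 28.6, 27.9 and 29.7 at the lower dose and 28.8, 29.8 and 27.7 at 10 μM. The log2 change was 0.21 for both doses (SE 0.05, adjusted p = 0.0158 and 0.0121), and both were lost without untreated replicate 3 (adjusted p = 0.0638 and 0.0527). At 6 h the 2 libraries with the highest summed RPKM held the lowest POLG, 17.8 at the lower dose and 17.2 at 10 μM. The other 6 h libraries were 25.1 and 22.0 at the lower dose and 30.7 and 29.5 at 10 μM. Without 10 μM replicate 3, POLG was called higher at 6 h (log2 change 0.27, adjusted p = 0.00665). Its gene shares 458 exonic bases with FANCI on the other strand, and FANCI was the more abundant, with a mean of 66.7 RPKM, so POLG values are uncertain if strand was not used.

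LRPPRC and SLIRP, the partner proteins that stabilize mitochondrial mRNAs, changed in opposite directions in HCT116 cells. LRPPRC (ENSG00000138095) measured 101.8, 97.8 and 100.4 RPKM untreated, 81.8, 69.6 and 77.8 after 6 h at the lower dose and 74.1, 80.4 and 61.2 at 10 μM. At 24 h it measured 87.3, 86.1 and 87.0 at the lower dose and 88.0, 82.2 and 83.8 at 10 μM. All 12 Omomyc libraries were below all 3 untreated ones. LRPPRC fell by 0.39 (SE 0.07, adjusted p = 0.00189) and 0.48 (SE 0.12, adjusted p = 0.0215) at 6 h and by 0.20 (SE 0.04, adjusted p = 0.00712) and 0.24 (SE 0.05, adjusted p = 0.00408) at 24 h, for the lower dose and 10 μM. Without the libraries with the highest summed RPKM, the falls at 6 h were -0.32 (adjusted p = 0.00164) and -0.37 (adjusted p = 0.00127). The call at 10 μM at 6 h was lost without untreated replicate 1 (-0.47, adjusted p = 0.0919), 2 (-0.50, 0.0759) or 3 (-0.48, 0.0891).

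SLIRP (ENSG00000119705) measured 168, 152 and 166 RPKM in untreated HCT116 cells and 270, 338 and 247 after 6 h at the lower dose. This log2 change of 0.80 (SE 0.11, adjusted p = 0.000411) was the largest of the 10 genes in any comparison with untreated cells. Without the library at 338 it was 0.68 (adjusted p = 0.000156). At 10 μM at 6 h SLIRP measured 201, 164 and 408 RPKM, which overlaps untreated cells and was not called (log2 change 0.56, adjusted p = 0.199). Without the library at 408 the change was 0.17 (adjusted p = 0.151), so the higher mean at that dose and time came from 1 library. At 24 h SLIRP rose to 218, 206 and 229 RPKM at the lower dose and 244, 228 and 197 at 10 μM, with log2 changes of 0.43 (SE 0.06, adjusted p = 0.00141) and 0.46 (SE 0.08, adjusted p = 0.00203). SLIRP shares 118 exonic bases with SNW1 on the other strand. The ratio of SLIRP to LRPPRC was 1.55 to 1.65 in untreated HCT116 cells and 2.05 to 6.67 in the 12 Omomyc libraries. The highest ratios, 6.67 at 10 μM and 4.86 at the lower dose, came from the 6 h libraries with the highest summed RPKM. At 24 h the ratio was 2.39 to 2.63 at the lower dose and 2.35 to 2.78 at 10 μM. In Ramos cells it was 4.19 to 4.97 untreated and 3.75 to 5.39 with Omomyc, and neither gene was called there. SLIRP stayed between 229 and 264 RPKM in the 15 Ramos libraries, and LRPPRC between 46.6 and 61.2.

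Of the RNA decay pair, PNPT1 rose at 6 h in HCT116 cells and SUPV3L1 was not called. PNPT1 (ENSG00000138035) measured 21.0, 20.04 and 20.2 RPKM untreated, 28.3, 25.2 and 23.9 at the lower dose and 24.3, 28.7 and 24.6 at 10 μM at 6 h. The groups do not overlap, and the log2 change was 0.33 at both doses (SE 0.08, adjusted p = 0.00693 at the lower dose and SE 0.10, adjusted p = 0.0447 at 10 μM). At 24 h the log2 change was 0.09 (95% interval -0.03 to 0.21) at the lower dose and 0.17 (SE 0.05, adjusted p = 0.0311) at 10 μM. Both calls at 10 μM were fragile. The 6 h call was kept only without 10 μM replicate 3 among the single libraries left out, with adjusted p from 0.0619 to 0.156 otherwise, and the 24 h call only without 10 μM replicate 3, with 0.0567 to 0.0972 otherwise. SUPV3L1 (ENSG00000156502) lay between 19.6 and 24.9 RPKM in all 30 libraries. Its log2 change against untreated cells ranged from -0.14 in Ramos cells with 500 nM at 6 h to 0.09 in HCT116 cells at the lower dose at 6 h.

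The directions of the HCT116 changes were compared under other scalings, since the summed RPKM rose with Omomyc. When libraries were rescaled to equal sums, the median log2 change of all genes at 6 h moved from -0.12 to -0.42 at the lower dose and from -0.11 to -0.56 at 10 μM. PNPT1 then turned to -0.00 and -0.15 at 6 h and to -0.01 at 24 h with 10 μM, and TFB2M stayed positive but lost its call, at 0.16 and 0.03. At 6 h TFAM (-0.28), POLRMT (-0.33) and POLG (-0.54) were called lower at the lower dose under that rescaling, and TFAM (-0.61) and SUPV3L1 (-0.58) at 10 μM. These fits called 9218 of all 14601 genes tested at the lower dose, 8595 of them lower. At 10 μM they called 7235 of 14877, 6925 of them lower. TFAM and POLRMT at the lower dose lay above the median of -0.42. At 24 h POLRMT was at 0.26 and 0.25 and POLG at 0.05 and 0.03 for the lower dose and 10 μM, and SLIRP at 0.27 at 10 μM, and these 5 calls were lost (adjusted p from 0.0529 to 0.868). TFAM and LRPPRC kept their calls at 24 h at both doses and SLIRP at the lower dose. The falls of TFB1M and LRPPRC at 6 h and the rise of SLIRP at the lower dose kept their direction and call. Measured against the median of all genes, TFB2M stood at 0.60 as deposited, 0.61 with median-ratio scaling and 0.58 with equal sums at the lower dose at 6 h, PNPT1 at 0.45, 0.46 and 0.42, TFB1M at -0.34, -0.33 and -0.37, and LRPPRC at -0.27, -0.26 and -0.30. At 10 μM at 6 h TFB2M stood at 0.62, 0.64 and 0.59, and TFB1M at -0.51, -0.50 and -0.54.

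Comparing 24 h with 6 h at the same dose, which shares the 6 h groups with the comparisons above, described how far these changes had gone back. At the lower dose in HCT116 cells 7 of 10 genes were called (40.8% of all genes), with TFB1M higher by 0.56 (SE 0.09, adjusted p = 0.00193), TFB2M lower by 0.57 on the log2 scale (SE 0.08, adjusted p = 0.000835), POLRMT and POLG higher, and TFAM, SLIRP and PNPT1 lower. When a replicate number was left out of both groups, TFB1M and TFB2M stayed called, while TFAM was lost without replicate 1 or 2, SLIRP without 1 or 2, POLRMT without 1, POLG without 3 and PNPT1 without any of the 3 (adjusted p from 0.0709 to 0.175). PNPT1 was also lost without the single 6 h library with the highest summed RPKM of that dose (adjusted p = 0.0528). At 10 μM 2 of 10 were called (7.86%), TFB1M with a log2 difference of 0.60 (adjusted p = 0.0428) and TFB2M with -0.49 (adjusted p = 0.0318). Both stayed called without the 6 h library with the highest summed RPKM, at 0.52 (adjusted p = 0.0177) and -0.50 (adjusted p = 0.00463), and both were lost when replicate 1 or replicate 2 was left out of both groups (adjusted p from 0.219 to 0.285). In Ramos cells 500 nM called 2 of 10 (25.4%), TFB2M at 0.22 (adjusted p = 0.0227) and POLG at -0.18 (adjusted p = 0.0242), and both were lost whichever replicate number was left out (adjusted p from 0.0625 to 0.137). With 2.5 μM, 6 of 10 were called (23.0%). TFB1M (0.29), TFB2M (0.21), LRPPRC (0.19), PNPT1 (0.17) and SUPV3L1 (0.17) were higher at 24 h than at 6 h, and TEFM was lower (-0.23). The highest adjusted p of these 6 was 0.0433. TFB2M, TEFM and PNPT1 were lost whichever replicate number was left out, TFB1M and LRPPRC without replicate 2 or 3, and SUPV3L1 without 1 or 2 (adjusted p from 0.0646 to 0.204). With equal sums the calls of TFAM, SLIRP and PNPT1 at the lower dose and of TFB2M (-0.19, adjusted p = 0.494) at 10 μM in HCT116 cells were lost, as were both calls with 500 nM and that of TEFM with 2.5 μM in Ramos cells.

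With the values as deposited, the higher dose was not told apart from the lower one for any of the 10 genes. Limma called 0 of 10 in HCT116 cells at 6 h (0% of all genes) and at 24 h (0.180%), and 0 of 10 in Ramos cells at 6 h (0.429%) and 24 h (4.25%). The number with an unadjusted p under 0.05 was 0, 0, 1 and 1. In HCT116 cells at 6 h the dose differences of SLIRP, POLRMT and POLG were -0.25, 0.20 and 0.22. Without replicate 3 at 10 μM they were -0.64, 0.41 and 0.48, still uncalled (adjusted p = 0.0684, 0.0641 and 0.0883). Without replicate 2 at the lower dose they were -0.12, 0.16 and 0.09 (adjusted p from 0.977 to 0.994). With equal sums TFAM (0.27) and SUPV3L1 (0.25) were called higher with 2.5 μM in Ramos cells at 24 h. That fit called 2567 of all 13629 genes tested, 2377 of them higher. For TFB1M the 10 μM minus lower dose difference at 6 h was -0.16 (95% interval -0.53 to 0.20), and for TFB2M it was 0.02 (-0.23 to 0.28). Intervals were narrower at 24 h, when the difference for LRPPRC was -0.04 (-0.15 to 0.08), and in Ramos cells at 6 h, when that for TFB1M was -0.06 (-0.18 to 0.06).

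To ask whether the responses of the lines differed, the lower dose in HCT116 cells was set against 2.5 μM in Ramos cells in one model with an interaction term, these being the nearest doses. The test called 5 of 10 genes at 6 h (40.6% of all genes) and 3 of 10 at 24 h (16.3%). At 6 h TFB2M, SLIRP and PNPT1 responded more upward in HCT116 cells and LRPPRC and POLG more downward. TFB1M fell in both lines, and the difference between the falls was -0.13 (95% interval -0.40 to 0.13, adjusted p = 0.411). At 24 h TFAM and LRPPRC were more downward and SLIRP more upward in HCT116 cells. With equal sums the calls of TFB2M (0.12, adjusted p = 0.466), SLIRP (0.31, 0.0824) and PNPT1 (-0.07, 0.658) at 6 h and of SLIRP at 24 h (0.07, 0.694) were lost, and TFB1M (-0.60, 0.00114), TFAM (-0.52, 0.0028) and POLRMT (-0.62, 0.00176) were called at 6 h. That rescaling moved the median of all genes at 6 h from -0.14 to -0.55, and its fit called 9881 of all 15624 genes tested, 9345 of them lower. Relative to that median TFB2M stood at 0.72 as deposited and 0.66 with equal sums, SLIRP at 0.93 and 0.86, PNPT1 at 0.54 and 0.47, and TFB1M at 0.01 and -0.05. The delivery reagent is described for HCT116 cells only, so cell line and any effect of the reagent cannot be told apart in this contrast.

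**Figure D4:**
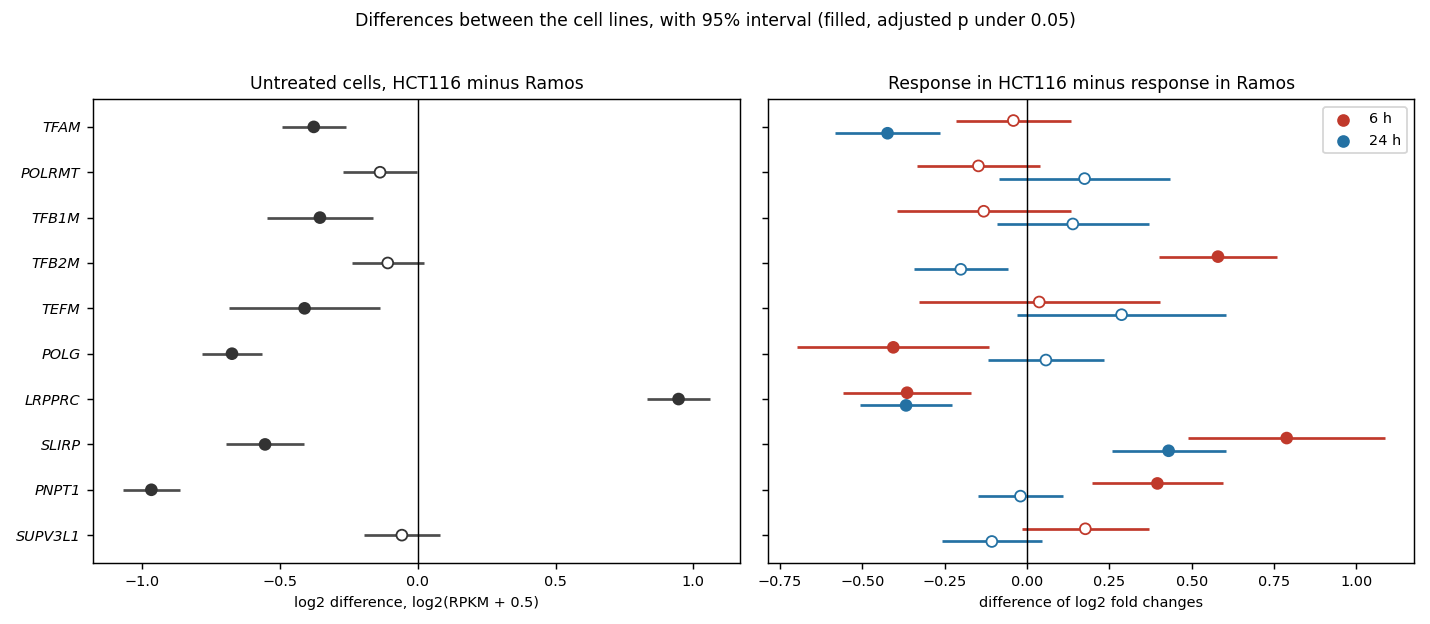
Log2 difference between untreated HCT116 and Ramos cells (left) and difference between their responses to Omomyc at 6 h (red) and 24 h (blue) at the nearest doses (right), with 95% intervals and filled symbols for an adjusted p under 0.05. LRPPRC lies at 0.95 and PNPT1 at -0.97 on the left, and SLIRP lies at 0.79 and TFB2M at 0.58 for 6 h on the right.

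The other genes of the pathway were counted by list. Of 31 genes of mitochondrial RNA processing, modification and stability, 7 rose and 8 fell at the lower dose at 6 h in HCT116 cells, with a median log2 change of -0.00, and 4 rose and 4 fell at 10 μM, with a median of -0.01. At 24 h 4 rose and 1 fell at the lower dose and 8 rose and 2 fell at 10 μM. These 15, 8, 5 and 10 of 31 stand beside 47.3%, 30.0%, 27.3% and 35.2% of all genes. In Ramos cells 10 were higher and 0 lower at 24 h than at 6 h with 2.5 μM, where 23.0% of all genes were called. FASTKD2, an RNA-binding protein of mitochondrial ribosome assembly, rose at the lower dose by log2 changes of 0.47 at 6 h (adjusted p = 0.00126) and 0.28 at 24 h (adjusted p = 0.00458), while MTRES1, which acts on stalled mitochondrial transcription, fell at 6 h (-0.63, adjusted p = 0.00365, and at 10 μM -0.59, adjusted p = 0.0136). In Ramos cells with 2.5 μM 4 rose and 3 fell at 6 h, among them the pseudouridine synthase PUS1 (0.31, adjusted p = 0.0145) and PTCD3 (-0.27, adjusted p = 0.0130), and 1, PUS1, rose at 24 h (0.49, adjusted p = 0.0147). These 7 and 1 of 31 stand beside 27.9% and 4.61% of all genes. Of 13 genes of mitochondrial DNA maintenance, 5 rose and 4 fell at the lower dose at 6 h in HCT116 cells and 1 rose and 1 fell at 10 μM. These 9 and 2 of 13 stand beside 47.3% and 30.0% of all genes, and no share was tested. ATAD3B rose in all 4 HCT116 comparisons, by 0.75, 0.67, 1.01 and 0.76 at the lower dose at 6 and 24 h and at 10 μM at 6 and 24 h, with the reservation that near-identical ATAD3 copies can share its reads. POLG2, the accessory subunit of POLG, fell at the lower dose at 6 h (-0.53, adjusted p = 0.00220). Of 5 termination and regulation genes, 1 rose at the lower dose at 6 h (47.3% of all genes called), MRPL12 (0.28, adjusted p = 0.0370). At 10 μM at 6 h 0 were called (30.0%).

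Of the upstream factors, 9 of 10 passed the filter in HCT116 cells and 10 of 10 in Ramos cells. PPRC1, a coactivator of the PGC-1 family, rose at 6 h in HCT116 cells from 23.3 ± 1.58 RPKM to 32.5 ± 2.37 at the lower dose (log2 change 0.47, adjusted p = 0.00125) and to 37.0 ± 7.98 at 10 μM (0.63, adjusted p = 0.0261). NRF1 rose at the lower dose at 6 h (0.26, adjusted p = 0.0337) and was not called at 10 μM (0.13, adjusted p = 0.441). MYC was 118 ± 4.92 RPKM in untreated HCT116 cells, 156 ± 2.87 at 6 h and 95.7 ± 2.76 at 24 h at the lower dose, a rise of 0.40 (adjusted p = 0.000646) and a fall (-0.30, adjusted p = 0.00283). At 10 μM it was 153 ± 30.3 at 6 h, which was not called (0.35, adjusted p = 0.128), and 95.9 ± 2.34 at 24 h, a fall (-0.30, adjusted p = 0.00164). In Ramos cells MYC rose with 2.5 μM at 6 h (0.35, adjusted p = 0.00292) and 24 h (0.27, adjusted p = 0.0424), and ESRRA, an orphan nuclear receptor, rose with 500 nM and 2.5 μM at 6 h (0.27 and 0.30) and with 2.5 μM at 24 h (0.26). GABPA, an ETS-family factor, fell in HCT116 cells at 24 h at both doses (-0.25 and -0.32). With MYC and GABPB1 it made up the 3 of 9 factors called at the lower dose at that time, where 27.3% of all genes were called.

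The transcripts made by this machinery showed larger log2 changes, with a median over 15 of 2.97 at the lower dose at 6 h in HCT116 cells and -0.43 with 2.5 μM at 6 h in Ramos cells. The 13 mitochondrial mRNAs summed to 2407 to 3421 RPKM in untreated HCT116 cells and to 13230 to 23920 RPKM at the lower dose at 6 h, and to 2257 to 2624 RPKM in untreated Ramos cells and 1775 to 1976 RPKM with 2.5 μM at 6 h. With the 2 mitochondrial rRNAs, 14 of 15 rose in HCT116 cells (47.3% of all genes called) and 11 of 15 fell in Ramos cells (27.9%) in these comparisons. At 10 μM at 6 h in HCT116 cells 14 of 15 rose (median 2.79, 30.0% of all genes). At 24 h 15 and 14 of 15 rose at the lower dose and 10 μM (medians 1.95 and 1.86, 27.3% and 35.2%). In Ramos cells 7 of 15 fell at 24 h with 2.5 μM (median -0.50, 4.61%). With 500 nM 10 of 15 fell at 6 h (23.6%) and 0 were called at 24 h (0.0146%). Which of the 10 genes, if any, bears on these changes was not tested.

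For each of the 10, the gene with the most similar pattern was sought among 9229 genes with a mean of at least 2 RPKM in each line. Likeness was the lower of the Pearson correlations within the 15 HCT116 and within the 15 Ramos libraries, which share dose, time and library composition, and it is given as a description. TFB2M was most like GNL3 (0.90), POLG most like GANAB (0.89) and TFB1M most like PIKFYVE (0.88). POLRMT was most like FASTK (0.87), PNPT1 most like TRMT12 (0.86), LRPPRC most like RCBTB1 (0.85) and TFAM most like MRPS35 (0.82). SUPV3L1 was most like DCAF13 (0.78), and SLIRP and TEFM had no close match, with 0.69 to NDUFA6 and 0.57 to ESYT2.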

How the data were processed

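RNA from HCT116 and Ramos cells was sequenced as rRNA-depleted, strand-specific total RNA. The authors deposited a single table of RPKM, with 57992 Ensembl genes as rows and the 30 libraries as columns. RSEM is named in the submitters' processing notes, without a version. The aligner, genome build, annotation and use of strand are not given in the sources used here. The values are fractional, so depth is unknown and no count test or interval based on depth was used. Precision rests on 3 replicates, whose log2 values correlated at 0.988 to 0.997. GENCODE 29 gave names for 57388 identifiers.

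Log2(RPKM + 0.5) was fitted with limma 3.58.1 in R 4.3.3 (lmFit, eBayes with a trend) on the libraries of each comparison, keeping genes whose RPKM averaged 0.5 or more there, with Benjamini-Hochberg adjustment over all genes tested and a threshold of 0.05. The 19 comparisons were 8 with untreated cells, 4 of 24 h with 6 h, 4 between doses, 1 between untreated lines and 2 interactions. The fit was tested on simulated data. The 10 genes and the other lists were chosen with earlier results of these data known. Named besides them are, per list, up to 3 called genes with the largest changes, any upstream factor, and for each of the 10 the most similar gene. Alternatives were pseudocounts of 0.1 and 1, no filter, median-ratio and equal-sum scaling, the replicate block, a shared fit over the 5 groups of a line, and 84 fits leaving out libraries. Leaving out the highest-sum 6 h libraries in further comparisons was chosen after seeing the data. Promoter windows came from RefSeq (GRCh38.p14).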

Additional observations from a re-analysis of the deposited data

Results flagged for a closer look

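The response to Omomyc differed between the lines for 5 of the 10 genes at 6 h and for 3 at 24 h, by the interaction test of limma at the nearest doses. The same test called 40.6% of all genes at 6 h and 16.3% at 24 h. Each value is the log2 change at the lower dose in HCT116 cells minus that at 2.5 μM in Ramos cells. At 6 h SLIRP differed by 0.79 (adjusted p = 0.000918), from changes of 0.80 in HCT116 cells and 0.02 in Ramos cells. TFB2M differed by 0.58 (adjusted p = 0.000259), from 0.49 and -0.09. PNPT1 differed by 0.40 (adjusted p = 0.00492), from 0.33 and -0.07. POLG differed by -0.41 (adjusted p = 0.0298), from -0.21 and 0.20. LRPPRC differed by -0.36 (adjusted p = 0.00694), from -0.39 and -0.03. Without replicate 2 of the lower dose in HCT116 cells, the library with the second highest summed RPKM of that line, all 5 stayed called, with POLG at -0.27 and SLIRP at 0.66. At 24 h TFAM differed by -0.42 (adjusted p = 0.00388), from -0.22 and 0.20. LRPPRC differed by -0.37 (adjusted p = 0.00427), from -0.20 and 0.16. SLIRP differed by 0.43 (adjusted p = 0.00552), from 0.43 and -0.00. When a replicate number was left out of all 4 groups, TFAM at 24 h was lost each time (adjusted p from 0.0510 to 0.0585), and LRPPRC and SLIRP at 24 h were lost without replicate 1 (0.0564 and 0.0768) or 3 (0.0725 and 0.0589). At 6 h POLG was lost without replicate 2 (0.0706) or 3 (0.139), LRPPRC without 2 (0.0584) and PNPT1 without 1 (0.0506), while TFB2M and SLIRP stayed called in these leave-outs. With equal sums TFB2M (0.12), SLIRP (0.31) and PNPT1 (-0.0739) lost their calls at 6 h, and SLIRP (0.07) at 24 h. A delivery reagent is described for HCT116 cells only, and its part was not tested.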

How the results depend on the processing

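Of the 58 calls of the 10 genes over the 19 comparisons, 7 were kept under every alternative, namely LRPPRC, TFB1M and SLIRP at the lower dose at 6 h, TFB1M and TFB2M between 24 h and 6 h at that dose, and LRPPRC and PNPT1 between the untreated lines. 35 calls were lost in at least 1 fit that left out a library. Pseudocounts of 0.1 and 1 changed 0 of the 58. With equal sums the number of the 10 called is given here beside all genes called in the same fit. At 24 h in HCT116 cells it became 3 at the lower dose (3872 of 14887) and 2 at 10 μM (4900 of 14831). In Ramos cells with 2.5 μM it became 4 at 6 h (4675 of 13607) and 7 at 24 h (5362 of 13619). For 24 h against 6 h it was 1 at 10 μM (1515 of 14989) and 0 with 500 nM (2438 of 13613). Between doses in Ramos cells at 24 h it was 2 (2567 of 13629), and for the interaction at 24 h it was 6 (6397 of 15787). With equal sums 8 of the 58 calls changed sign, and none of them was called in that fit. They were PNPT1 at the lower dose at 6 h (-0.0034), at 10 μM at 6 h (-0.15) and 24 h (-0.0090), and its interaction at 6 h (-0.0739). Between untreated lines they were TFAM 0.19, TFB1M 0.21, TEFM 0.14 and SLIRP 0.0225. Other values, not called as deposited, were called with the opposite sign under equal sums. These were TFAM -0.28 and POLRMT -0.33 at the lower dose at 6 h, and the interaction of POLG at 24 h (-0.30). Between untreated lines they were POLRMT 0.43, TFB2M 0.45 and SUPV3L1 0.51. SLIRP at 10 μM, 24 h against 6 h, ranged from -0.38 without replicate 2 to 0.38 without replicate 3. With a shared fit over the 5 groups of a line, the count was 0 at either dose at 24 h in HCT116 cells. All genes called there were 1113 of 14826 at the lower dose and 2535 of 14826 at 10 μM. In Ramos cells it was 2 with 2.5 μM at 24 h (1242 of 13594). Without a filter it was 1 with either dose at 6 h in Ramos cells (2008 of 25313 genes with 500 nM and 2665 of 25647 with 2.5 μM). With 2.5 μM at 24 h there it was 0 (84 of 25387). For 24 h against 6 h in HCT116 cells it was 3 at the lower dose (4597 of 29251) and 0 at 10 μM (296 of 29234). For that contrast with 2.5 μM in Ramos cells it was 3 (2040 of 26273). Median-ratio scaling gave 0 with 2.5 μM at 24 h in Ramos cells (346 of 13602) and 1 for 24 h against 6 h at 10 μM (971 of 14917). The replicate numbers did not pair the samples, since same-numbered samples deviated together (r over 0.1) in 4 of 51 pairs. With the replicate block the count was 0 with 2.5 μM at 24 h in Ramos cells (197 of 13607). It was also 0 for 24 h against 6 h at 10 μM (256 of 14920), and 7 of the 58 calls were lost. Leaving out single libraries changed the counts as follows, with all genes called in these fits in brackets. In HCT116 cells it gave 3 to 5 at the lower dose at 24 h (2167 of 14987 to 3665 of 14844). At 10 μM it gave 1 to 7 at 6 h (1813 of 14839 to 7565 of 14784) and 3 to 5 at 24 h (3725 of 14898 to 4780 of 14766). In Ramos cells it gave 0 to 2 with 500 nM at 6 h (1853 of 13629 to 3012 of 13611). With 2.5 μM it gave 0 to 2 at 6 h (2446 of 13613 to 3703 of 13624) and 0 to 1 at 24 h (60 of 13596 to 929 of 13643). For 24 h against 6 h leaving out libraries gave 3 to 6 and 0 to 3 in HCT116 cells and 0 to 1 and 0 to 2 in Ramos cells, for the lower and higher dose, and 0 to 2 for the interaction at 24 h. When a replicate number was left out, all genes called were 3670 of 14805 to 3999 of 14722 and 44 of 14959 to 2881 of 14882 in HCT116 cells. They were 1517 of 13636 to 2618 of 13601 and 1464 of 13559 to 1775 of 13551 in Ramos cells. For the interaction at 24 h they were 29 of 15716 to 897 of 15716. The cause of these shifts was not tested. Depth is unknown, so the limit that read number sets on TEFM, the lowest of the 10, could not be given. Of uncalled values, 36 passed and 116 turned sign without passing in some alternative.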
